A study of Mus musculus with 32 samples.

Results

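The genes described here are 36 genes of hepatic lipogenesis and triglyceride synthesis, taken by name from the pathway with earlier results of these data known. They encode the transcription factors that control it and the enzymes that supply its carbon and reducing power. Others build, lengthen and desaturate fatty acids or join fatty acids to glycerol. All 36 were on the array with 52 of its 55681 probes, and all 36 passed the filter on dim probes and were among the 21010 genes tested. They were measured in liver RNA of male C57/BL6 mice on 32 single-colour Agilent mouse arrays, 1 liver per array and 4 arrays per group. The mice, 8 weeks old when the diet began, ate chow (C) or a diet deficient in methionine and choline (MCD) for 3 weeks and received saline or Fc-GLP-1, a glucagon-like peptide-1 fused to an antibody Fc part that activates the GLP-1 receptor, for the last 2 of them. The treated groups are named C+Fc-GLP-1 and, on the MCD diet, M+Fc-GLP-1. Each of these groups was sampled before and 2 weeks after a partial hepatectomy (PH) that removed 70% of the liver, with diet and injections kept up in between, which makes 8 groups. Part of the labels describe the drug instead as an agonist of both the GLP-1 and the glucagon receptor at 4.4 mg/kg per day, so the agent is named here as the study names it. Among the source names, those of C+Fc-GLP-1 after PH give a dual agonist for the time after PH, and those of M+Fc-GLP-1 after PH give the same treatment as before. By the labels, these 2 groups may therefore differ in drug as well as in diet. This limit applies to every comparison with C+Fc-GLP-1 after PH. Whether the livers taken before and after PH belong to the same animals is not in the labels, and only mice that lived through the surgery could be sampled after it.

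In the fed liver, sugar that is not needed is broken down to citrate, which leaves the mitochondrion and is cleaved to acetyl-CoA. Acetyl-CoA carboxylase and fatty acid synthase turn this into palmitate with reducing power from NADPH, and elongases and desaturases shape palmitate into stearate and oleate. Acyltransferases, the lipins and the diacylglycerol acyltransferases then build triglyceride, which is stored in droplets or sent out in lipoproteins. Insulin acts on the pathway through SREBP-1c and sugar through ChREBP, and a liver lacking choline stores fat because it cannot make enough phosphatidylcholine to send it out.

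Values below are log2 signals relative to the 75th percentile of the same array, so 0 is a probe at that percentile and a difference of 1 is a doubling. They compare arrays for 1 probe, not probes with each other. A gene was called higher or lower where the limma fit over all 32 arrays gave an adjusted p below 0.05 over all 21010 genes, with the Benjamini-Hochberg adjustment, and every adjusted p below is from that fit. The 75th percentile itself lay between 209.4 and 778.4 intensity units, 37.7% to 69.7% of spots were well above background, and none of the members' spots was saturated. The 32 arrays sat on 5 slides: C and MCD before PH shared slide 1, both treated groups shared slide 2 before and slide 4 after PH, C after PH had slide 3 alone and MCD after PH slide 5 alone. Slide therefore did not coincide with diet in MCD against C before PH or in M+Fc-GLP-1 against C+Fc-GLP-1 at either time, and these comparisons come first. In every other pairwise comparison below, slide and group cannot be told apart. Over all genes, the median absolute deviation from the group mean was highest on C before PH arrays 1 and 2 (0.35 and 0.34, against 0.25 and 0.24 on arrays 3 and 4) and on C after PH array 1 (0.35, against 0.19 to 0.25 on its other 3 arrays). C after PH array 1 also held Elovl3 at -3.61 where the others held it between 4.70 and 5.39. In whole-liver RNA, fewer cells of a type and less RNA per cell cannot be told apart.

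Before PH the MCD diet lowered few of the genes by itself and many under Fc-GLP-1. Of the 36, 5 were lower in MCD than in C and 2 were higher, where 15.5% of all genes tested were lower and 10.9% higher, so the share of members called was near the background. Their median log2 difference was -0.21, beside -0.13 for all genes. With arrays centred on their median these became 0.16 and 0.24, so the sign of that median has no meaning of its own. Between M+Fc-GLP-1 and C+Fc-GLP-1 before PH, 15 members were lower and 3 higher, beside 5.02% and 5.34% of all genes, and their median was -0.87, beside 0.03. After PH the same diet comparison under Fc-GLP-1 had 11 members lower and 3 higher, beside 6.62% and 6.19% of all genes, with a median of -0.29, beside -0.01. In MCD against C after PH, where slide and group cannot be told apart, 8 were lower and 3 higher, beside 6.09% and 6.04% of all genes. The 5 genes lowered by MCD alone before PH were Srebf1, Slc25a1, Elovl3, Elovl5 and Scd1, and the 2 raised were Agpat3 and Lpin3. Under Fc-GLP-1 before PH the lowered genes spanned the route from precursors (G6pdx, Me1, Acly, Acss2) through Fasn, Elovl6 and Scd1 to Acsl5, Gpam, Pnpla3 and Pnpla5. All calls of this comparison, higher and lower together, numbered 11 in place of 18 without C+Fc-GLP-1 array 3. The counts that set C+Fc-GLP-1 against another group include Pnpla5, which passed the filter on dim probes only through the C+Fc-GLP-1 groups and so had to differ there, and which is no support for them.

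**Figure D1:**
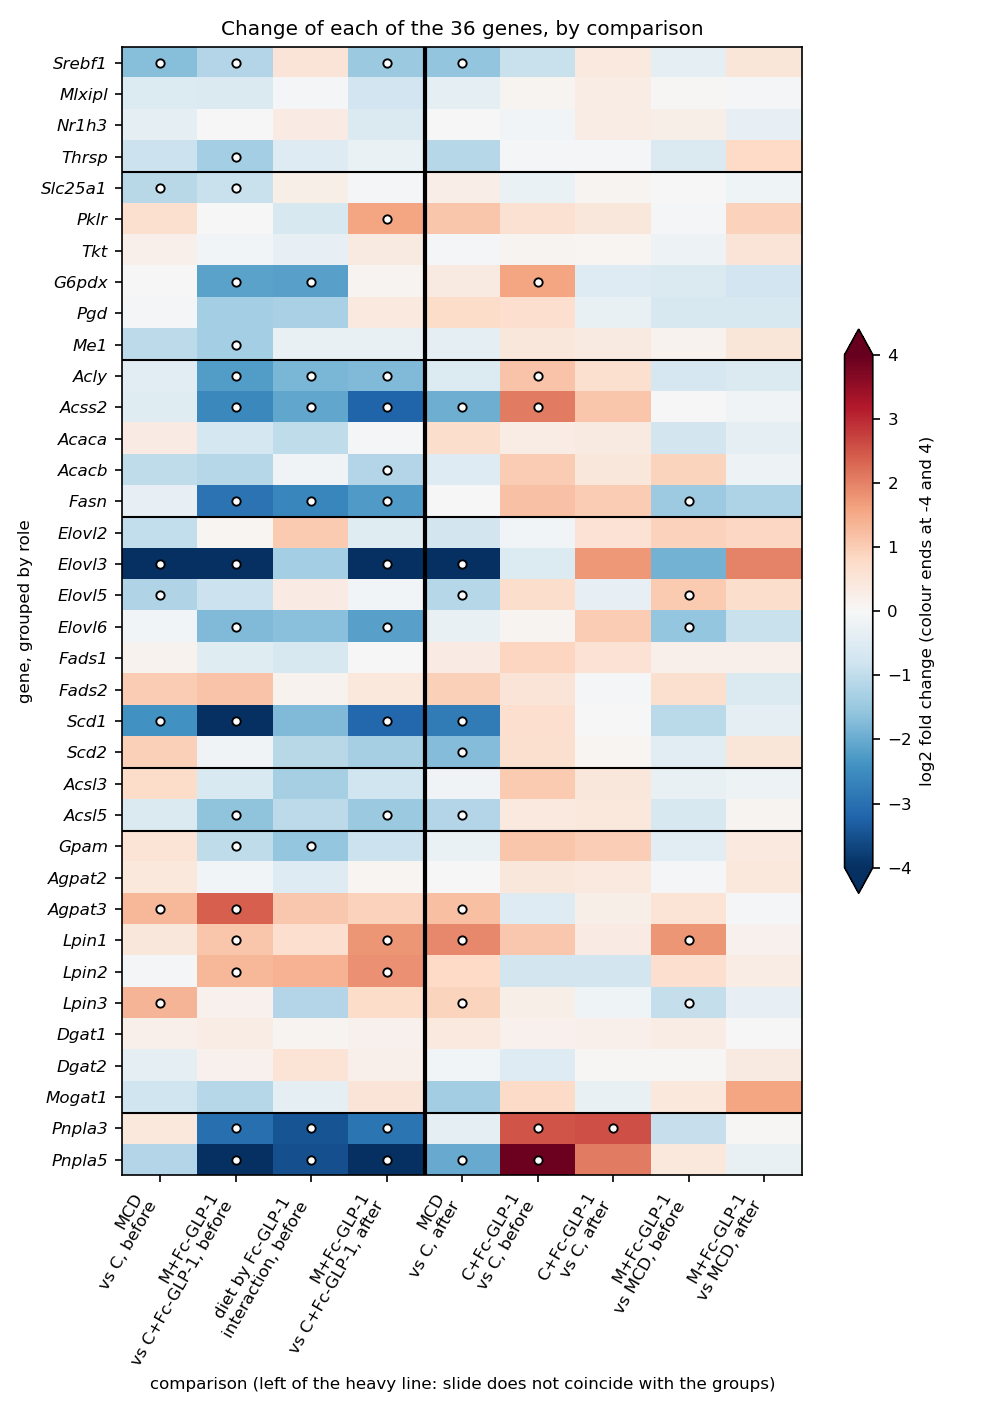
Heat map of the log2 difference of the 36 genes, in rows by role, in 9 comparisons; colour runs from -4 to 4 and a white circle marks a limma adjusted p below 0.05. Left of the heavy line are the comparisons in which slide and group do not coincide. There, G6pdx, Acly, Acss2, Fasn and Scd1 are blue between M+Fc-GLP-1 and C+Fc-GLP-1 before PH. Not every row between them is blue, and fewer rows are circled between MCD and C before PH. Right of the line are comparisons in which slide and group cannot be told apart.

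Among the regulators, Srebf1, which encodes SREBP-1a and SREBP-1c, the factors that switch on fatty acid synthesis genes, was lower on the MCD diet with and without Fc-GLP-1. Before PH, Srebf1 read 2.55, 3.48, 2.54 and 2.77 on the C arrays and 1.1, 1.29, 0.86 and 1.33 on the MCD arrays. Under Fc-GLP-1 it read 1.93, 1.77, 2.3 and 1.74 in C+Fc-GLP-1 and 0.84, 1.2, 0.51 and 0.50 in M+Fc-GLP-1. Every MCD-fed array lay below every chow array of its drug group, by 1.69 ± 0.31 (SE, n = 4 and 4, limma adjusted p = 2.40e-04) without and 1.17 ± 0.31 (limma adjusted p = 0.014) with Fc-GLP-1. After PH, Srebf1 read 1.64, 2.67, 1.7 and 1.77 in C, 0.45, 0.83, -0.01 and 0.15 in MCD, 1.95, 1.85, 2.25 and 3.27 in C+Fc-GLP-1 and 1.64, 0.55, 0.88 and 0.27 in M+Fc-GLP-1. Here too the diet groups did not overlap, and M+Fc-GLP-1 fell by 1.5 ± 0.31 against C+Fc-GLP-1 (limma adjusted p = 0.00147; 0.0545 on the authors' normalized values). The probe lies at chr11:60012664-60012723 on the minus strand of mm9 and does not tell SREBP-1a from SREBP-1c here, since no exon map of that build was used.

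Thrsp, also called Spot 14, a small protein that rises with lipogenesis, was more scattered. Its 4 arrays held 6.31, 7.49, 7.24 and 7.35 in C, 6.12, 6.94, 6.5 and 5.35 in MCD, 7.5, 7.26, 6.55 and 6.82 in C+Fc-GLP-1 and 4.99, 6.58, 4.77 and 6.31 in M+Fc-GLP-1 before PH. M+Fc-GLP-1 array 2 reached into the C+Fc-GLP-1 range, and the difference of -1.37 ± 0.45 passed narrowly (limma adjusted p = 0.049). After PH, Thrsp read 5.19, 6.36, 6.14 and 6.15 in C, 5.2, 5.32, 4.38 and 4.35 in MCD, 6.23, 6.0, 4.4 and 6.91 in C+Fc-GLP-1 and 6.1, 5.63, 5.09 and 5.6 in M+Fc-GLP-1, with overlapping diet groups and no call. The other regulators moved less. Mlxipl, which encodes the sugar-sensing factor ChREBP, had group means between 5.89 and 7.39, and Nr1h3, the oxysterol receptor LXR alpha, between 5.24 and 5.9. Neither passed in any diet comparison: between M+Fc-GLP-1 and C+Fc-GLP-1 before PH Mlxipl differed by -0.58 (95% interval -1.12 to -0.05) and Nr1h3 by -0.02 (-0.62 to 0.57).

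**Figure D2:**
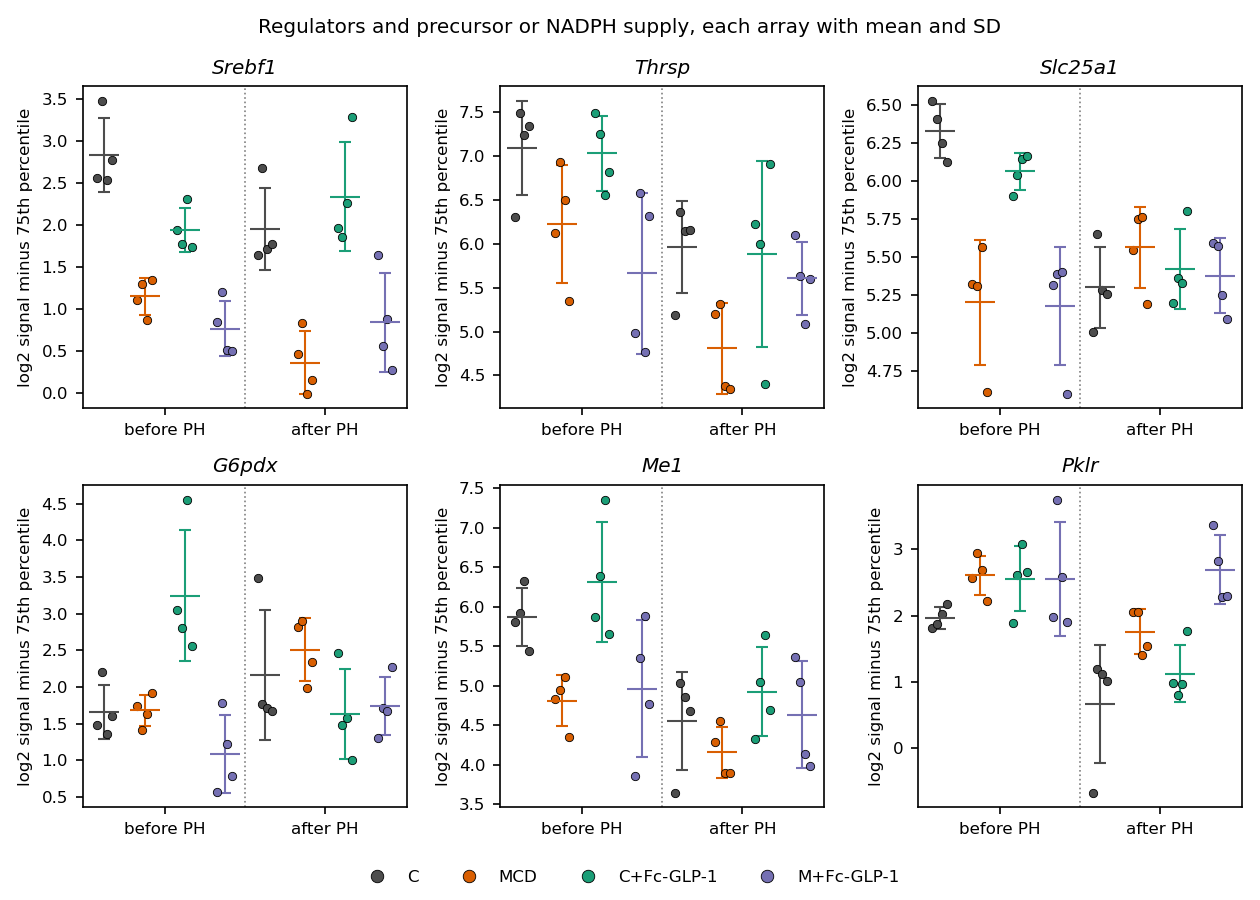
Log2 signal relative to the array's 75th percentile (y axis) in the 8 groups (x axis) for Srebf1, Thrsp, Slc25a1, G6pdx, Me1 and Pklr; points are arrays and bars the mean ± SD of 4. Srebf1 is below chow in each MCD-fed group, G6pdx is highest in C+Fc-GLP-1 before PH, and C after PH array 1 is the outlying point for Pklr and G6pdx.

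The genes that supply carbon and NADPH separated into those that fell under the combined condition and those that did not. G6pdx encodes glucose-6-phosphate dehydrogenase, the first NADPH-making step of the pentose phosphate pathway. Before PH, G6pdx read 1.48, 2.2, 1.36 and 1.6 in C and 1.75, 1.42, 1.63 and 1.92 in MCD, which overlap. With Fc-GLP-1 it read 3.05, 2.8, 4.55 and 2.56 in C+Fc-GLP-1 and 0.57, 1.78, 1.22 and 0.79 in M+Fc-GLP-1. The 4 C+Fc-GLP-1 arrays were the highest of the 16, and M+Fc-GLP-1 lay below them by 2.15 ± 0.40 (limma adjusted p = 5.53e-04), a 4.45-fold difference. No such gap was measured after PH, where G6pdx read 3.49, 1.76, 1.71 and 1.67 in C, 2.81, 2.89, 1.98 and 2.34 in MCD, 2.47, 1.49, 1.57 and 1.0 in C+Fc-GLP-1 and 1.3, 1.72, 1.67 and 2.27 in M+Fc-GLP-1. The difference between the last 2 groups was 0.11 (95% interval -0.71 to 0.92).

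Me1, the cytosolic malic enzyme that makes NADPH from malate, read 5.8, 5.91, 6.32 and 5.44 in C and 4.83, 4.94, 5.11 and 4.35 in MCD before PH, a difference of -1.06 that did not pass (limma adjusted p = 0.0508). Under Fc-GLP-1 it read 5.87, 6.39, 7.36 and 5.65 in C+Fc-GLP-1 and 3.86, 5.35, 5.88 and 4.76 in M+Fc-GLP-1 (-1.35 ± 0.40, limma adjusted p = 0.0289). These groups overlap at M+Fc-GLP-1 array 3, and the 3 probes of Me1 did not move alike, running from -1.35 to 0.11 in this comparison and from -1.06 to 0.85 in MCD against C. Their mean gave -0.67 between the treated groups and was not called (limma adjusted p = 0.1804). After PH, Me1 stood between 4.16 and 4.92 in group means, with no diet call. Slc25a1, the mitochondrial citrate carrier, fell by 1.12 ± 0.22 in MCD against C (limma adjusted p = 4.76e-04; -0.67 and 0.0954 on the authors' normalized values, -0.66 with normexp background correction and quantile normalization, below called normexp) and by 0.88 ± 0.22 in M+Fc-GLP-1 against C+Fc-GLP-1 before PH (limma adjusted p = 0.00889). After PH its means were 5.42 and 5.38 in the treated groups.

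Pklr, the liver pyruvate kinase that feeds glycolysis into the pathway, went the other way. Before PH, Pklr read 1.8, 1.87, 2.02 and 2.17 in C, 2.57, 2.95, 2.69 and 2.23 in MCD, 1.89, 2.61, 3.08 and 2.66 in C+Fc-GLP-1 and 1.97, 3.75, 2.58 and 1.9 in M+Fc-GLP-1, and no diet call was made. After PH it read -0.68, 1.18, 1.12 and 1.0 in C, 2.05, 2.05, 1.4 and 1.53 in MCD, 0.97, 0.79, 0.96 and 1.76 in C+Fc-GLP-1 and 3.38, 2.82, 2.28 and 2.29 in M+Fc-GLP-1. All 4 M+Fc-GLP-1 arrays lay above all C+Fc-GLP-1 arrays, by 1.57 ± 0.38 (limma adjusted p = 0.00566). Tkt, transketolase, kept its group means between 5.73 and 6.24, and Pgd, the second NADPH-making enzyme of the pentose phosphate pathway, ranged from 2.31 to 4.31 without a diet call.

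Of the 5 enzymes from acetyl-CoA to palmitate, none was called in MCD against C before PH, beside 15.5% of all genes lower and 10.9% higher. Between the treated groups 3 were lower before PH and 4 after it, beside 5.02% and 6.62% of all genes. Acly, ATP citrate lyase, cleaves citrate to cytosolic acetyl-CoA. Before PH, Acly read 5.77, 7.52, 6.51 and 6.61 in C and 5.89, 6.44, 6.59 and 5.79 in MCD, against 7.79, 7.42, 7.94 and 7.86 in C+Fc-GLP-1 and 5.37, 5.94, 5.58 and 5.14 in M+Fc-GLP-1. C and MCD overlap, while the treated groups were at least 1 log2 unit apart and differed by -2.24 ± 0.31 (limma adjusted p = 1.53e-05), a 4.74-fold difference. After PH, Acly read 5.94, 6.53, 6.75 and 6.58 in C, 5.92, 6.04, 6.02 and 5.67 in MCD, 6.95, 6.66, 7.03 and 7.78 in C+Fc-GLP-1 and 6.07, 5.19, 5.49 and 4.58 in M+Fc-GLP-1, and the treated groups again did not overlap (-1.77 ± 0.31, limma adjusted p = 2.54e-04).

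Acss2 makes acetyl-CoA from acetate in the cytosol and nucleus. Its C arrays were scattered before PH, at 3.42, 6.19, 5.6 and 4.56, beside 4.55, 3.92, 5.35 and 4.01 in MCD, 6.54, 7.05, 6.84 and 7.68 in C+Fc-GLP-1 and 4.08, 4.38, 4.87 and 4.52 in M+Fc-GLP-1. The lowest C+Fc-GLP-1 array was above every M+Fc-GLP-1 array, and the groups differed by -2.56 ± 0.45 (limma adjusted p = 3.05e-04). After PH, Acss2 read 4.26, 5.59, 5.39 and 5.5 in C, 2.79, 3.29, 3.39 and 3.39 in MCD, 6.3, 5.55, 6.73 and 6.55 in C+Fc-GLP-1 and 2.99, 3.64, 3.67 and 1.97 in M+Fc-GLP-1. The MCD-fed arrays now lay below the chow arrays in both pairs, by 3.21 ± 0.45 between the treated groups (limma adjusted p = 1.28e-05), a 9.28-fold difference.

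Fasn, fatty acid synthase, assembles palmitate. Before PH, Fasn read 2.66, 4.28, 4.13 and 3.56 in C and 3.56, 3.79, 3.83 and 2.16 in MCD, a difference of -0.32 (95% interval -1.22 to 0.58). With Fc-GLP-1 it read 4.59, 4.52, 5.24 and 5.0 in C+Fc-GLP-1 and 1.79, 2.86, 1.71 and 1.23 in M+Fc-GLP-1. The treated groups did not overlap and differed by -2.94 ± 0.44 (limma adjusted p = 3.92e-05), a 7.67-fold difference. After PH, Fasn read 1.98, 3.18, 2.72 and 3.01 in C, 3.12, 3.44, 2.15 and 2.08 in MCD, 3.61, 3.26, 3.37 and 4.73 in C+Fc-GLP-1 and 2.01, 1.42, 1.94 and 0.53 in M+Fc-GLP-1, and fell by 2.27 ± 0.44 between the last 2 (limma adjusted p = 7.21e-04). The acetyl-CoA carboxylases, which make malonyl-CoA, moved less. Acaca, the cytosolic form, had group means from 5.27 to 5.99 with no diet call, and its 4 probes ran from -1.41 to 0.25 between M+Fc-GLP-1 and C+Fc-GLP-1 before PH. Acacb, the form at the mitochondrial surface, ranged from 4.08 to 6.57 and was lower after PH on the MCD diet under Fc-GLP-1 (-1.19 ± 0.38, limma adjusted p = 0.0377), with overlapping groups.

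**Figure D3:**
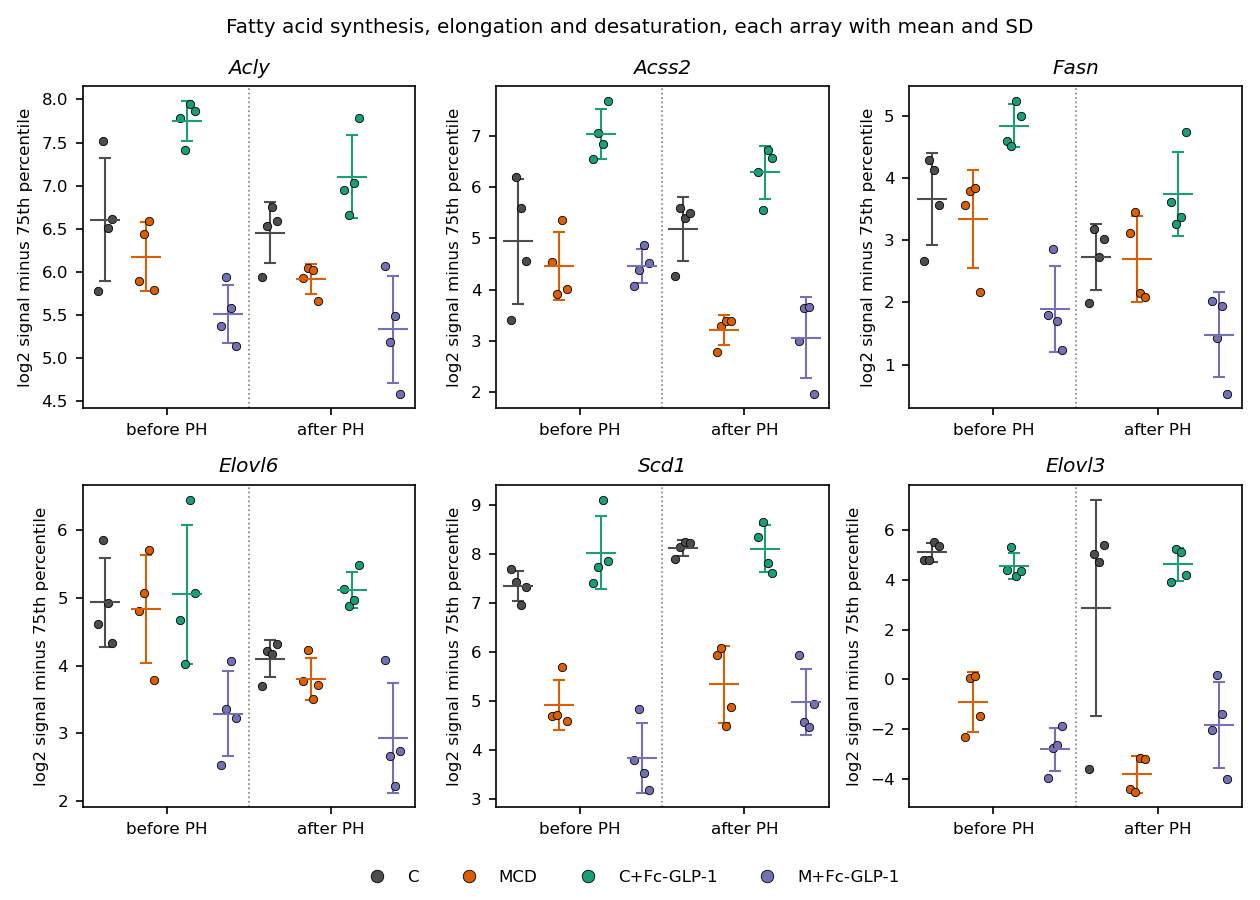
Log2 signal relative to the array's 75th percentile (y axis) in the 8 groups (x axis) for Acly, Acss2, Fasn, Elovl6, Scd1 and Elovl3; points are arrays and bars the mean ± SD of 4. Fasn and Acly overlap between C and MCD before PH and do not overlap between the treated groups at either time, while Scd1 is lower in every MCD-fed group and the point of C after PH array 1 lies far below its group for Elovl3.

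Elongation and desaturation held the members with the largest differences by diet alone. Scd1, stearoyl-CoA desaturase, makes oleate and palmitoleate, monounsaturated fatty acids found in liver triglyceride. Before PH, Scd1 read 7.69, 7.44, 6.96 and 7.34 in C and 4.69, 4.72, 5.7 and 4.59 in MCD, a fall of 2.43 ± 0.40 (limma adjusted p = 6.24e-05). With Fc-GLP-1 it read 7.42, 7.74, 9.12 and 7.87 in C+Fc-GLP-1 and 3.81, 4.84, 3.54 and 3.19 in M+Fc-GLP-1. This difference, -4.19 ± 0.40 (limma adjusted p = 3.32e-08), is 18.2-fold. After PH, Scd1 read 7.9, 8.15, 8.25 and 8.23 in C, 5.94, 6.08, 4.49 and 4.88 in MCD, 8.35, 8.67, 7.83 and 7.63 in C+Fc-GLP-1 and 5.95, 4.58, 4.47 and 4.94 in M+Fc-GLP-1, so that no MCD-fed array reached any chow array in any of the 4 pairs of groups.

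Elovl3 lengthens saturated and monounsaturated acids to very long chains, and in mouse liver it is known for large swings over the day and between the sexes. Before PH, Elovl3 read 4.78, 4.79, 5.5 and 5.34 in C, -2.32, 0.05, 0.12 and -1.47 in MCD, 4.39, 5.31, 4.16 and 4.35 in C+Fc-GLP-1 and -3.97, -2.76, -2.63 and -1.87 in M+Fc-GLP-1. After PH it read -3.61, 5.02, 4.7 and 5.39 in C, -4.38, -4.51, -3.14 and -3.17 in MCD, 3.92, 5.24, 5.09 and 4.2 in C+Fc-GLP-1 and -2.05, 0.16, -1.4 and -3.99 in M+Fc-GLP-1. Apart from C after PH array 1, all chow arrays were above 3.9 and all MCD-fed arrays below 0.2. It fell by 6.0 ± 1.15 in MCD against C (limma adjusted p = 3.75e-04) and by 7.36 ± 1.15 in M+Fc-GLP-1 against C+Fc-GLP-1 (limma adjusted p = 7.24e-05) before PH. 1 of the 4 M+Fc-GLP-1 arrays before PH and 2 of the 4 MCD arrays after PH were well above background.

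Elovl6, which takes palmitate to stearate, followed Fasn rather than Scd1 in that C and MCD overlapped. Before PH, Elovl6 read 4.62, 5.86, 4.93 and 4.34 in C, 4.8, 5.07, 5.71 and 3.78 in MCD, 4.67, 4.02, 6.45 and 5.07 in C+Fc-GLP-1 and 2.53, 3.35, 4.07 and 3.22 in M+Fc-GLP-1. The treated groups overlapped at 1 array and differed by -1.76 ± 0.44 (limma adjusted p = 0.0091). After PH, Elovl6 read 3.7, 4.22, 4.18 and 4.32 in C, 3.77, 4.24, 3.51 and 3.71 in MCD, 5.13, 4.88, 4.97 and 5.49 in C+Fc-GLP-1 and 4.09, 2.67, 2.22 and 2.75 in M+Fc-GLP-1, where the treated groups no longer overlapped (-2.19 ± 0.44, limma adjusted p = 0.00106). The genes of polyunsaturated acids stood apart from this. Elovl5 fell in MCD against C before PH by 1.19 ± 0.29 (limma adjusted p = 0.00302) but differed by -0.85 (95% interval -1.44 to -0.26) between the treated groups. Elovl2 ranged from 4.04 to 5.71 in group means, and the desaturases Fads1 from 4.32 to 5.74 and Fads2 from 2.78 to 4.42, with no diet call in these 3 comparisons. Scd2, the desaturase of brain and immature liver, was at -0.27 in C and 0.69 in MCD before PH and was not called in these comparisons.

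Acyl-CoA synthetases activate fatty acids for use. Acsl5, of the mitochondrial and endoplasmic reticulum membranes, read 5.79, 5.59, 5.81 and 5.36 in C, 5.68, 4.95, 4.74 and 4.88 in MCD, 5.79, 6.77, 5.85 and 5.64 in C+Fc-GLP-1 and 4.86, 4.32, 4.52 and 3.92 in M+Fc-GLP-1 before PH. Each M+Fc-GLP-1 array was below each C+Fc-GLP-1 array (-1.61 ± 0.32, limma adjusted p = 0.0014), and C and MCD overlapped. After PH, Acsl5 read 4.92, 5.26, 5.71 and 5.35 in C, 4.19, 3.86, 4.63 and 3.88 in MCD, 5.27, 5.49, 5.94 and 6.22 in C+Fc-GLP-1 and 3.77, 5.23, 3.4 and 4.57 in M+Fc-GLP-1, a fall of 1.48 ± 0.32 between the treated groups (limma adjusted p = 0.00243; 0.0679 on the authors' normalized values). Acsl3, of lipid droplets, lay between -1.37 and -0.10 in group means with no diet call.

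Of the 9 genes of glycerolipid assembly, 2 were higher and none lower in MCD than in C before PH, beside 10.9% of all genes higher. Between the treated groups 3 were higher and 1 lower before PH and 2 higher and none lower after it, beside 5.34% and 6.19% of all genes higher. Agpat3 adds the second acyl chain on the way to phosphatidic acid and to phospholipids. Before PH, Agpat3 read 5.97, 4.34, 4.22 and 6.13 in C, 6.26, 6.38, 6.67 and 6.65 in MCD, 4.87, 4.68, 4.45 and 4.57 in C+Fc-GLP-1 and 7.23, 6.69, 7.0 and 7.25 in M+Fc-GLP-1. No MCD-fed array overlapped its chow group, with rises of 1.33 ± 0.32 (limma adjusted p = 0.00345) without and 2.4 ± 0.32 (limma adjusted p = 8.87e-06) with Fc-GLP-1. The first of these was 2.04 with normexp and 2.11 on the authors' values. Within C, arrays 1 and 4 lay well above arrays 2 and 3. After PH, Agpat3 read 5.07, 5.24, 5.41 and 5.61 in C, 5.96, 6.69, 6.82 and 6.74 in MCD, 5.31, 5.96, 4.99 and 5.99 in C+Fc-GLP-1 and 6.4, 6.12, 6.75 and 6.63 in M+Fc-GLP-1, where the treated groups differed by 0.91 (95% interval 0.25 to 1.58) and were not called.

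The lipins turn phosphatidic acid into diacylglycerol, and lipin 1 also acts as a coactivator in the nucleus during fasting. Lpin1 read 2.7, 3.46, 2.4 and 2.57 in C, 2.93, 4.1, 2.83 and 3.03 in MCD, 4.52, 3.66, 3.15 and 4.15 in C+Fc-GLP-1 and 5.39, 5.83, 4.43 and 4.25 in M+Fc-GLP-1 before PH. After PH it read 1.55, 1.05, 1.85 and 1.63 in C, 3.82, 3.16, 3.43 and 3.32 in MCD, 1.08, 1.92, 1.77 and 2.56 in C+Fc-GLP-1 and 3.4, 4.03, 3.73 and 3.31 in M+Fc-GLP-1. M+Fc-GLP-1 overlapped C+Fc-GLP-1 before PH (1.1 ± 0.36, limma adjusted p = 0.0457) and lay wholly above it after PH (1.78 ± 0.36, limma adjusted p = 0.00105). Lpin2 read 3.26, 4.12, 2.54 and 3.01 in C, 3.28, 3.09, 2.95 and 3.39 in MCD, 2.75, 2.07, 2.35 and 2.86 in C+Fc-GLP-1 and 4.45, 2.9, 3.62 and 4.37 in M+Fc-GLP-1 before PH. It read 2.72, 1.18, 2.17 and 2.48 in C, 2.63, 2.55, 3.32 and 3.29 in MCD, 2.0, 1.31, 0.63 and 1.65 in C+Fc-GLP-1 and 2.75, 4.41, 2.91 and 2.9 in M+Fc-GLP-1 after PH. The treated groups did not overlap at either time, with M+Fc-GLP-1 higher by 1.33 ± 0.40 (limma adjusted p = 0.029) and 1.84 ± 0.40 (limma adjusted p = 0.00199). Lpin3 rose in MCD against C before PH by 1.37 ± 0.30 (limma adjusted p = 0.00122), and its treated groups had means of 1.34 and 1.52.

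The first and last steps of triglyceride assembly varied less. Gpam, the mitochondrial glycerol-3-phosphate acyltransferase, was lower on the MCD diet under Fc-GLP-1 before PH (-1.02 ± 0.31, limma adjusted p = 0.0326), with overlapping groups. Agpat2 kept its means between 7.43 and 8.13. Dgat1 and Dgat2, which add the third acyl chain, ranged from 1.75 to 2.56 and from 7.85 to 8.67, and neither was called in any comparison of diets. Dgat1 differed by 0.20 (95% interval -0.23 to 0.63) between MCD and C before PH and was called higher there on the authors' normalized values (limma adjusted p = 0.0036). Mogat1, a monoacylglycerol acyltransferase, was dim. Before PH its probe cleared background on 4 of 4 arrays in C, on 3 in MCD, on 2 in C+Fc-GLP-1 and on 0 in M+Fc-GLP-1, and after PH on 3, 0, 4 and 4 in the same order. No diet call was made.

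**Figure D4:**
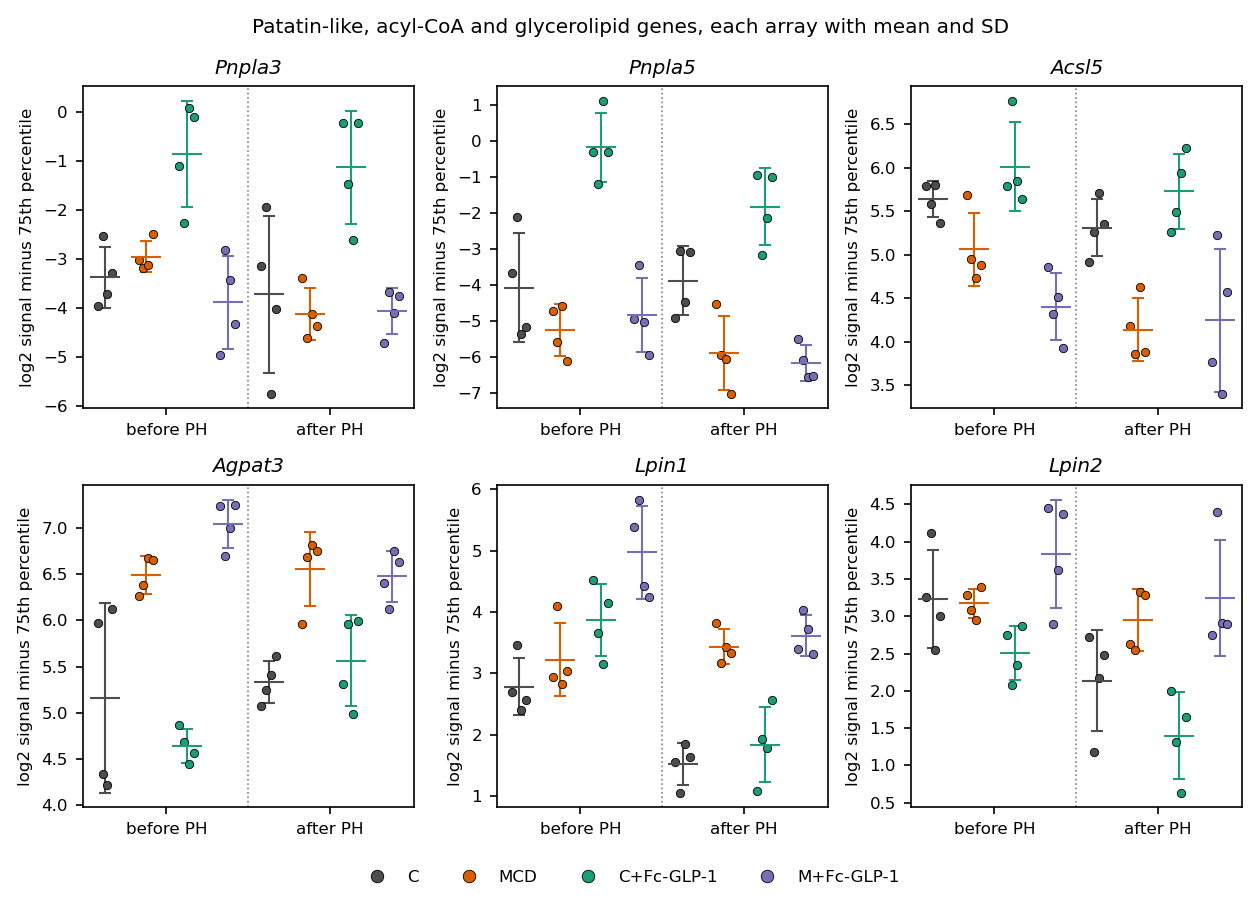
Log2 signal relative to the array's 75th percentile (y axis) in the 8 groups (x axis) for Pnpla3, Pnpla5, Acsl5, Agpat3, Lpin1 and Lpin2; points are arrays and bars the mean ± SD of 4. Pnpla3 and Pnpla5 have their highest means in the C+Fc-GLP-1 groups, whereas the means of Agpat3, Lpin1 and Lpin2 are higher in M+Fc-GLP-1 than in C+Fc-GLP-1.

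The patatin-like proteins Pnpla3 and Pnpla5, which lie close together on chromosome 15, sit on lipid droplets, and Pnpla3 is known for its link to human fatty liver. Both were dim outside C+Fc-GLP-1. Before PH, Pnpla3 read -3.95, -2.53, -3.7 and -3.29 in C, -3.02, -3.19, -3.12 and -2.5 in MCD, -1.11, -2.27, 0.07 and -0.10 in C+Fc-GLP-1 and -4.96, -2.81, -3.44 and -4.32 in M+Fc-GLP-1. The last group was not well above background on any of its 4 arrays, so the difference is a bound: C+Fc-GLP-1 was at least 6.98-fold higher in this scaling (limma adjusted p = 0.0014). After PH, Pnpla3 read -3.15, -1.94, -5.74 and -4.02 in C, -3.39, -4.61, -4.12 and -4.36 in MCD, -0.22, -1.48, -2.62 and -0.23 in C+Fc-GLP-1 and -4.72, -3.67, -4.09 and -3.75 in M+Fc-GLP-1 (-2.92 ± 0.61 between the last 2, limma adjusted p = 0.00158). Its other probe differed in sign in MCD against C before PH (-2.21, against 0.41 for the probe used), where no call was made, and was alike between the treated groups (-3.61). With normexp and on the authors' normalized values, the treated groups differed by less, at -1.23 and -1.18 before PH and -1.28 and -1.46 after it, and remained called. The values before PH are smaller than the bound.

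Pnpla5 too had its highest means in the C+Fc-GLP-1 groups. Before PH, Pnpla5 read -3.67, -2.11, -5.36 and -5.17 in C, -4.71, -5.6, -4.58 and -6.11 in MCD, -0.31, -1.19, 1.13 and -0.30 in C+Fc-GLP-1 and -4.95, -3.45, -5.03 and -5.93 in M+Fc-GLP-1. After PH it read -4.91, -3.04, -4.48 and -3.08 in C, -4.52, -5.95, -6.07 and -7.03 in MCD, -0.95, -3.17, -2.14 and -0.99 in C+Fc-GLP-1 and -5.5, -6.08, -6.57 and -6.54 in M+Fc-GLP-1. It was well above background on 1 of 4 C arrays and all 4 C+Fc-GLP-1 arrays before PH and on none of the 16 MCD-fed arrays. Since these 4 and the 4 C+Fc-GLP-1 arrays after PH were what brought it past the filter, its differences from C+Fc-GLP-1 are given without a test. C+Fc-GLP-1 was at least 13.9-fold higher than M+Fc-GLP-1 before PH and at least 6.56-fold higher after it in this scaling. With normexp the log2 differences were -2.21 and -1.32 and on the authors' values -2.05 and -1.61, all smaller than these bounds.

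How far these calls hold differs by gene. Leaving out any 1 of the 8 arrays changed none of the 7 calls in MCD against C before PH. Of the 18 calls in M+Fc-GLP-1 against C+Fc-GLP-1 before PH, 10 held without each array and under each of the 8 other ways of processing that were tried: G6pdx, Acly, Acss2, Fasn, Elovl3, Scd1, Acsl5, Agpat3, Pnpla3 and Pnpla5, the last with the limit above. Among the 8, the fit with slide as a block leaves each log2 difference unchanged, so it does not test slide. Srebf1 was lost without C+Fc-GLP-1 array 3 (adjusted p = 0.0527), Elovl6 without C+Fc-GLP-1 array 3 (adjusted p = 0.058), and Slc25a1 without M+Fc-GLP-1 array 4 (adjusted p = 0.0548). Thrsp was lost without C+Fc-GLP-1 arrays 1, 2, 3 or 4 or M+Fc-GLP-1 arrays 1 or 3 (adjusted p = 0.0521 to 0.173), Me1 without C+Fc-GLP-1 arrays 2 or 3 or M+Fc-GLP-1 arrays 1 or 4 (adjusted p = 0.0659 to 0.136), and Gpam without C+Fc-GLP-1 arrays 2, 3 or 4 or M+Fc-GLP-1 arrays 1, 3 or 4 (adjusted p = 0.0554 to 0.124). Lpin1 was lost without C+Fc-GLP-1 arrays 2, 3 or 4 or M+Fc-GLP-1 arrays 1 or 2 (adjusted p = 0.0526 to 0.163) and Lpin2 without C+Fc-GLP-1 arrays 2 or 3 or M+Fc-GLP-1 arrays 1 or 4 (adjusted p = 0.0707 to 0.104). Other processing ended the calls of Elovl6 (limma adjusted p = 0.135 on the authors' values and 0.0669 in the arrays compared alone) and Slc25a1 (0.1065 and 0.0633) too. It ended those of Thrsp, Me1 and Lpin1 under 5 of the 8 ways each and those of Gpam and Lpin2 under 3 each, with adjusted p up to 0.1804. After PH, 11 of the 14 calls held throughout, Acacb was lost without C+Fc-GLP-1 arrays 1, 3 or 4 or M+Fc-GLP-1 arrays 2, 3 or 4 (adjusted p = 0.0768 to 0.127) and under 4 of the 8 ways, and Srebf1 and Acsl5 were lost on the authors' values as given above.

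The difference between the diet effect under Fc-GLP-1 and the diet effect under saline was tested itself before PH, as an interaction in which additive slide effects cancel. It passed for 7 members, all in the direction of a lower MCD-fed group under Fc-GLP-1, and for none in the other direction, beside 2.56% and 3.58% of all genes. Fasn had an interaction of -2.62 ± 0.62 (limma adjusted p = 0.0162), and it alone held without each of the 16 arrays and under each alternative. G6pdx was at -2.17 ± 0.57 (limma adjusted p = 0.0241) and was lost without C+Fc-GLP-1 array 3 or M+Fc-GLP-1 array 1 (adjusted p = 0.0502 to 0.0522), with normexp (0.1022) and on the authors' values (0.0621). Acly was at -1.82 ± 0.45 (limma adjusted p = 0.0181), held without each array and was lost with the mean over its probes (-1.69, adjusted p = 0.0563). Pnpla3, with M+Fc-GLP-1 not well above background, was at -3.44 ± 0.87 (limma adjusted p = 0.0205) and held without each array. It fell to -1.36 with normexp (adjusted p = 0.0573) and to -1.28 on the authors' values (0.0654), and was lost in both. The other probe of Pnpla3 was at -2.21 in MCD against C and -3.61 between the treated groups. The probe used was at 0.41 and -3.03, so the interaction was smaller on the other probe. Pnpla5, at -3.51, compares 2 MCD-fed groups that were not well above background. It passed the filter only through C+Fc-GLP-1, so its value is given without a test and its call is no support for the count of 7. With normexp it was at -1.9 and on the authors' values at -1.72. Acss2 (-2.08 ± 0.64, limma adjusted p = 0.0486) was lost without any 1 of 12 of the 16 arrays and under 5 of the 8 other ways of processing, and Gpam (-1.56 ± 0.44, limma adjusted p = 0.035) was lost without C arrays 1 or 2 or MCD arrays 1 or 3 or C+Fc-GLP-1 arrays 2, 3 or 4 or M+Fc-GLP-1 arrays 1 or 4 (adjusted p = 0.0521 to 0.0846) and under 3 of the 8. The count was 3 without C+Fc-GLP-1 array 3 and 4 without MCD array 1, MCD array 3 or M+Fc-GLP-1 array 1.

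Scd1 and Elovl3, the members lowered most by MCD alone, had interactions of -1.76 (95% interval -2.91 to -0.61) and -1.36 (-4.69 to 1.98) that did not pass, and Srebf1 had 0.52 (-0.39 to 1.42). None of the 7 was called in MCD against C, while Srebf1 was lower under both drug states. In all 7 the mean of C+Fc-GLP-1 was more than 1 unit above that of C, and in all but Gpam the mean of M+Fc-GLP-1 was below that of C, though slide and group cannot be told apart in these last comparisons.

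**Figure D5:**
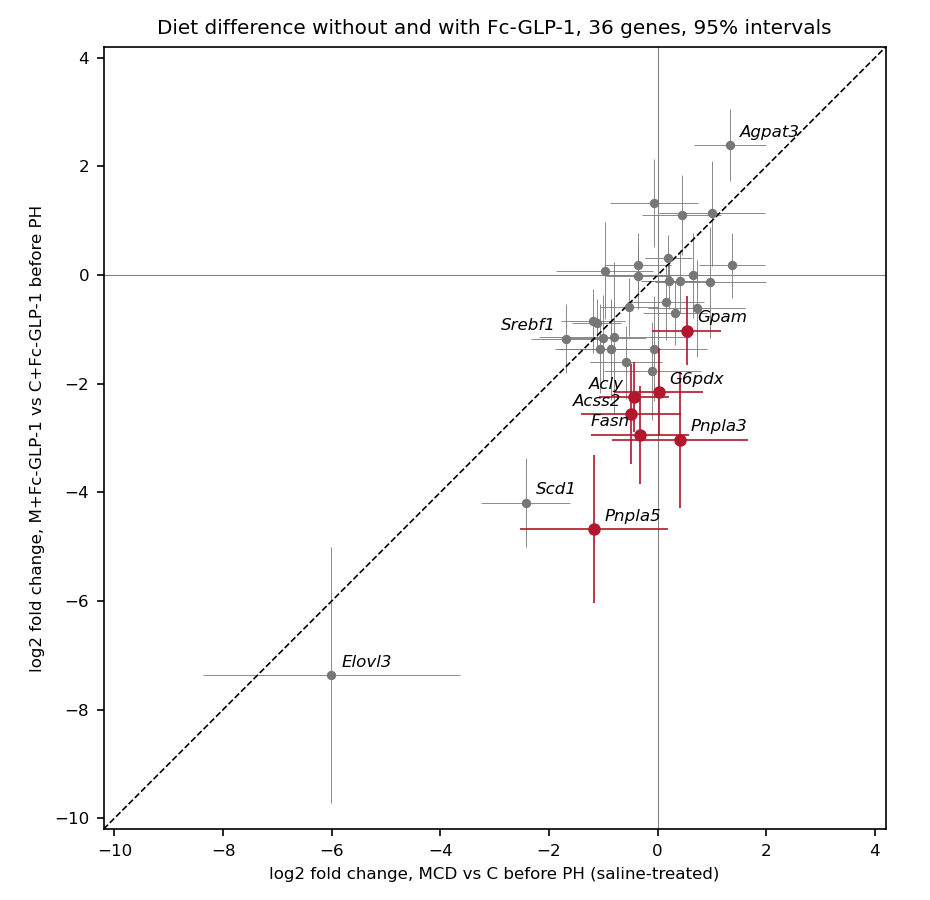
Log2 difference by diet before PH under saline (x axis, MCD against C) and under Fc-GLP-1 (y axis, M+Fc-GLP-1 against C+Fc-GLP-1) for the 36 genes, with 95% intervals and a dashed line of equal difference. The 7 members past the threshold in the interaction, in red, lie below the line with x values from -1.17 to 0.54, while Scd1 and Elovl3 lie far left as well as low.

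The stretch before the start of transcription is shown for 5 of these 7 members, those with the most negative interaction. Whether they share a control was not tested. The letters are the 250 bases upstream of the start in RefSeq, build GRCm38.p6, read 5′ to 3′ on the gene's own strand, with capitals where a searched motif lies on either strand: CCAAT, the NF-Y box (ATTGG on the other strand), GGGCGG, the GC box bound by Sp1 (CCGCCC on the other strand), CACGTG, the E-box, and TCACNCCAC, a sterol regulatory element. Acss2 is at chr2:155517793-155518042 on the plus strand, Fasn at chr11:120824548-120824797 on the minus strand, G6pdx at chrX:74428881-74429130 on the minus strand, Pnpla3 at chr15:84167566-84167815 on the plus strand and Pnpla5 at chr15:84123176-84123425 on the minus strand.
Acss2: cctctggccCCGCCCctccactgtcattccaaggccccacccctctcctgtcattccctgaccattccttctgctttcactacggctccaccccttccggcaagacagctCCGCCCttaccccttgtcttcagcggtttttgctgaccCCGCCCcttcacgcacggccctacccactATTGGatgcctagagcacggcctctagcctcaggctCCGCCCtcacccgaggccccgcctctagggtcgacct
Fasn: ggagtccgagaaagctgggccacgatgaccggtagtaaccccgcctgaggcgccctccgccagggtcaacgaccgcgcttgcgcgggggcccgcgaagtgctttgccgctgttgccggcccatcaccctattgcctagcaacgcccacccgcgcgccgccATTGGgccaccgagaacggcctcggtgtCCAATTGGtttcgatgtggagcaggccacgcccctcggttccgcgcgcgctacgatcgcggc
G6pdx: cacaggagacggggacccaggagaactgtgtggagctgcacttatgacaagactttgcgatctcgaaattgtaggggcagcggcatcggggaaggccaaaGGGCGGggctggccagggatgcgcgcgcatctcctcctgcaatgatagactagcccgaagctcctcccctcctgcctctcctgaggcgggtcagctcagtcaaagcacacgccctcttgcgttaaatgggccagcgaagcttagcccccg
Pnpla3: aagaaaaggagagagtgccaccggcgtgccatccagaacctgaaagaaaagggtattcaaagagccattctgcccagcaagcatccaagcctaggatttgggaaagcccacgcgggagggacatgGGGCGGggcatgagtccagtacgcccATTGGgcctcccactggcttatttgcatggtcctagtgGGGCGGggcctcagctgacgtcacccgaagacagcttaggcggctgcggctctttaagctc
Pnpla5: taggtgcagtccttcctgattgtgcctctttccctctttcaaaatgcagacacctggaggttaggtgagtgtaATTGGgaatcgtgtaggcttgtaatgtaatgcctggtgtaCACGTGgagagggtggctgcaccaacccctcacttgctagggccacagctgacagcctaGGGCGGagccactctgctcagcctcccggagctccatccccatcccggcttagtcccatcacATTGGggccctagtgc
Acss2 held 4 GC boxes and 1 NF-Y box, Fasn 3 NF-Y boxes of which 2 overlap, G6pdx 1 GC box, Pnpla3 2 GC boxes and 1 NF-Y box, and Pnpla5 an E-box, 1 GC box and 2 NF-Y boxes. Over the 42 promoters listed for 30 of the 36 members, 42.9% held an NF-Y box, 47.6% a GC box, 11.9% an E-box and 2.38% (1 promoter, of Mlxipl) the sterol element, beside 33.8%, 32.7%, 6.02% and 1.05% of 32851 mouse promoters of the same length. A match describes the letters only, and the windows exclude sites farther upstream.

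The diet effect under Fc-GLP-1 was then compared between livers before and after PH, which asks whether the differences above were still there 2 weeks after the surgery. None of the 36 passed in this test, a limma interaction of diet and time, beside 0.0476% of all genes in each direction, and 5 had an unadjusted p below 0.05, 4 of them with a smaller loss or larger rise after PH. The largest was G6pdx at 2.26 ± 0.57 (limma adjusted p = 0.123), whose difference between the treated groups was -2.15 before and 0.11 after PH. Pklr was at 1.58 (95% interval 0.48 to 2.68), and Agpat3, at -1.49 (-2.42 to -0.55), rose less after PH. For Fasn the interval ran from -0.60 to 1.95, for Acss2 from -1.96 to 0.66 and for Scd1 from -0.09 to 2.21.

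The remaining comparisons are described with the limit that slide and group cannot be told apart. In chow-fed mice before PH, 5 members were higher in C+Fc-GLP-1 than in C and none lower, beside 0.961% and 1.13% of all genes. They were Pnpla3 (2.52 ± 0.61), Acss2 (2.08 ± 0.45), G6pdx (1.58 ± 0.40) and Acly (1.15 ± 0.31), with limma adjusted p up to 0.0498, and Pnpla5. The Pnpla5 difference of 3.91, with 1 of 4 C arrays well above background, is given without a test for the reason above. The calls changed with 1 array: the count was 1 without C array 1 and 2 without C array 3, C array 4, C+Fc-GLP-1 array 3 or C+Fc-GLP-1 array 4. Each of these counts includes Pnpla5, which passed the filter only through C+Fc-GLP-1 and so had to differ here. G6pdx was lost without C arrays 1, 3 or 4 or C+Fc-GLP-1 arrays 1 or 3 (adjusted p = 0.0525 to 0.125), Acss2 without C array 1 or C+Fc-GLP-1 array 4 (adjusted p = 0.0504 to 0.0649), Pnpla3 without C arrays 1, 3 or 4 or C+Fc-GLP-1 arrays 3 or 4 (adjusted p = 0.052 to 0.0849), and Acly without any 1 of 7 of the 8 arrays. Pnpla3 was at 0.96 with normexp and 0.91 on the authors' values, and Pnpla5 at 1.92 and 1.78. In a limma fit of these 8 arrays alone no member passed, and all 5 passed in the fit of all arrays. Srebf1 did not move with these 5: it was -0.90 in C+Fc-GLP-1 against C (95% interval -1.53 to -0.26).

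In MCD-fed mice before PH, 2 members were higher with Fc-GLP-1 than without and 3 lower, beside 4.43% and 2.78% of all genes. Lpin1 (1.75 ± 0.36, limma adjusted p = 0.00475) and Elovl5 (1.06 ± 0.29) were higher, and Elovl6 (-1.55 ± 0.44), Fasn (-1.44 ± 0.44) and Lpin3 (-0.95 ± 0.30) lower. Lpin1 alone held without each array and under each alternative. Fasn was lost without MCD arrays 1, 2 or 3 or M+Fc-GLP-1 arrays 1, 3 or 4 (adjusted p = 0.0919 to 0.121), Elovl6 without MCD arrays 1, 2 or 3 or M+Fc-GLP-1 arrays 1 or 4 (adjusted p = 0.0609 to 0.108), Elovl5 without MCD arrays 1 or 2 or M+Fc-GLP-1 array 1 (adjusted p = 0.0692 to 0.0831) and Lpin3 without MCD arrays 1, 2 or 3 or M+Fc-GLP-1 arrays 1, 2 or 3 (adjusted p = 0.0703 to 0.147). The count was 1 without MCD array 1, MCD array 2 or M+Fc-GLP-1 array 1, 2 without MCD array 3 and 3 without M+Fc-GLP-1 array 3 or 4.

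After PH, MCD against C had 8 members lower and 3 higher, beside 6.09% and 6.04% of all genes. Elovl3 (-6.68 ± 1.15; -8.84 without C array 1), Scd1 (-2.79 ± 0.40), Pnpla5 (at least 1.44-fold lower, MCD not well above background), Acss2 (-1.97 ± 0.45), Scd2 (-1.74 ± 0.50), Srebf1 (-1.59 ± 0.31), Acsl5 (-1.17 ± 0.32) and Elovl5 (-1.14 ± 0.29) were lower. Lpin1 (1.92 ± 0.36), Agpat3 (1.22 ± 0.32) and Lpin3 (0.89 ± 0.30) were higher. Without C array 1 Scd2 was at -1.01. Scd2 was lost without C array 1 or MCD array 1 (adjusted p = 0.0796 to 0.102), Acsl5 without C array 3 or MCD array 2 (adjusted p = 0.0586 to 0.0664), Lpin3 without C arrays 2, 3 or 4 or MCD arrays 1 or 2 (adjusted p = 0.0528 to 0.197) and Pnpla5 without C arrays 2, 3 or 4 or MCD arrays 2, 3 or 4 (adjusted p = 0.0558 to 0.14), and each of these 4 under 2 or more of the 7 other ways of processing, with Pnpla5 at -0.36 with normexp and -0.39 on the authors' values. Elovl3 and Elovl5 were lost in the fit of these 8 arrays alone (limma adjusted p = 0.0515 and 0.0553). Srebf1, Acss2, Scd1, Agpat3 and Lpin1 held without each array and under each alternative, Lpin1 at 2.97 with the mean over its probes. Fasn was at -0.03 (95% interval -0.93 to 0.87) in this comparison and Acly at -0.54 (-1.18 to 0.10).

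Fc-GLP-1 after PH gave few calls. In chow-fed mice 1 member was higher and none lower, beside 1.14% and 0.938% of all genes: Pnpla3, at 2.58 ± 0.61 (limma adjusted p = 0.0225), lost without C arrays 3 or 4 or C+Fc-GLP-1 arrays 1 or 4 (adjusted p = 0.0571 to 0.112), with normexp (1.12) and on the authors' values (1.23). In MCD-fed mice limma called none of the 36 in either direction, beside 3.71% higher and 2.78% lower of all genes, and 5 had an unadjusted p below 0.05. Elovl5 was called there without M+Fc-GLP-1 array 4 (0.998, limma adjusted p = 0.0323).

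Between livers before and after PH, C had 1 member higher and 5 lower after PH, beside 6.1% and 7.9% of all genes. Scd2 rose (2.08 ± 0.50) and Me1 (-1.32 ± 0.40), Pklr (-1.31 ± 0.38), Lpin1 (-1.26 ± 0.36), Slc25a1 (-1.03 ± 0.22) and Mlxipl (-0.93 ± 0.26) fell, and the count was 3 without C after PH array 1. That array held Scd2 at 3.98 against 0.59 to 1.83 on the other 3, and without it the rise was 1.35 (limma adjusted p = 0.0426) and the fall of Pklr 0.86. With normexp Slc25a1 was at -0.07, Lpin1 at -0.49, Pklr at -0.69 and Me1 at -0.88, none of them called, and Lpin1 was at -2.05 with the mean over its probes. In a fit of these 8 arrays alone Scd2 was not called (0.0812). Me1 was lost without C before PH arrays 2 or 3 or C after PH array 1 (adjusted p = 0.0526 to 0.132), Pklr without C before PH array 4 or C after PH array 1 (adjusted p = 0.0519 to 0.131), Lpin1 without C before PH array 2 or C after PH array 2 (adjusted p = 0.0607 to 0.0691) and Mlxipl without C after PH array 1 (adjusted p = 0.105). Lpin1 was also lower after PH in C+Fc-GLP-1 (-2.04 ± 0.36; lost without C+Fc-GLP-1 after PH array 1 (adjusted p = 0.0506)) and in M+Fc-GLP-1 (-1.36 ± 0.36, limma adjusted p = 0.0458; lost without M+Fc-GLP-1 before PH arrays 1 or 2 or M+Fc-GLP-1 after PH arrays 1, 2, 3 or 4 (adjusted p = 0.0608 to 0.122)). In MCD it was at 0.21 (95% interval -0.52 to 0.95). C+Fc-GLP-1 had 2 members lower and none higher, beside 0.357% and 0.481% of all genes, the other being G6pdx (-1.61 ± 0.40; lost without any 1 of the 8 arrays). M+Fc-GLP-1 had 1 lower and none higher, beside 0.89% and 0.823%. MCD had 1 lower and none higher, beside 3.24% and 6.22%: Thrsp, at -1.42 ± 0.45 (limma adjusted p = 0.0436), lost without MCD before PH arrays 1, 2 or 3 or MCD after PH arrays 1, 3 or 4 (adjusted p = 0.0536 to 0.145).

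Other genes of the pathway, listed apart from the 36, did not follow as a block. Of 14 partners in SREBP maturation and transcription, 2 were lower in MCD than in C before PH, a share near the 15.5% of all genes: Scap (-0.71 ± 0.24), which escorts SREBP to the Golgi, and Nfyb (-0.90 ± 0.27), a subunit of NF-Y. In M+Fc-GLP-1 against C+Fc-GLP-1, 2 were lower and 1 higher before PH and 4 lower and 2 higher after it, beside 5.02% and 5.34%, then 6.62% and 6.19%, of all genes. In M+Fc-GLP-1 against MCD before PH, 1 of the 14 was lower and 3 higher, beside 2.78% and 4.43% of all genes. Slide and group cannot be told apart there. Mlx, the partner of ChREBP, was lower (-1.24 ± 0.36). Usf2 (0.98 ± 0.28), Rxra (0.88 ± 0.24) and Nr1h2 (0.71 ± 0.22), an E-box factor and 2 nuclear receptors, were higher. Among genes of sugar entry, the phosphofructokinase Pfkl was lower in MCD than in C (-0.85 ± 0.26). Of 14 other fatty acid enzymes, 3 were lower and 3 higher in MCD than in C, beside 15.5% and 10.9% of all genes. Scd3, a desaturase close in sequence to Scd1, was the lowest (-3.56 ± 0.46), and Elovl7, an elongase not well above background in C, was at least 11.9-fold higher. The acyl-CoA synthetase Acsl1 (-1.22 ± 0.46) and the elongation enzyme Tecr (-0.95 ± 0.31) were lower too, and Acsl4 (1.33 ± 0.35) and Fads6 (0.95 ± 0.23) higher. Fads3 was the member of this list called in M+Fc-GLP-1 against MCD (-1.6 ± 0.41), beside 2.78% of all genes lower. Of 11 other glycerolipid enzymes, 4 were higher and none lower in MCD than in C, beside the same shares: Mogat2 (5.38 ± 0.52), Gpat3 (5.35 ± 0.38), Plpp1 (1.73 ± 0.26) and Agpat4 (0.90 ± 0.30). In M+Fc-GLP-1 against C+Fc-GLP-1, 2 of these 11 were higher and none lower before PH, and 4 were higher and 1 lower after it, beside 5.34% and 5.02%, then 6.19% and 6.62%, of all genes. Against MCD before PH, M+Fc-GLP-1 had Mogat2 (-3.33 ± 0.52) and Gpat2 (-1.0 ± 0.31) lower, beside 2.78% of all genes.

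Genes of feeding state, daily rhythm and other cell types moved with the members in some comparisons. The sources used here do not state the time of day or the feeding state at sampling. Of 8 fasting-response genes tested, 6 were higher and none lower on the MCD diet under Fc-GLP-1 before PH, among them Pdk4 (2.64 ± 0.67), Cpt1a (1.37 ± 0.22) and Fgf21 (3.23 ± 0.54), and 4 were higher after PH, beside 5.34% and 6.19% of all genes higher. Pdk4, Cpt1a and, below, Arntl were chosen after their values were seen. In MCD against C before PH, Fgf21 was called higher. Of 10 clock genes tested, 7 were higher and 2 lower between the treated groups before PH, beside 5.34% and 5.02% of all genes, with Ciart at 5.23 ± 0.60 and Arntl at -4.58 ± 0.65. In MCD against C before PH, 4 were higher and 1 lower, beside 10.9% and 15.5% of all genes. The part of feeding and of the clock in the members' differences was not tested.

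Of 8 macrophage markers, 7 were higher and none lower in MCD than in C before PH, beside 10.9% and 15.5% of all genes. Their summed signal was 80.9 to 205.2 against 40.2 to 72.5 times the 75th percentile, led by Trem2 (4.62 ± 0.75), Vsig4 (2.3 ± 0.42) and Lyz2 (1.96 ± 0.55). Between the treated groups before PH none was higher and 1 lower, beside 5.34% and 5.02% of all genes, with sums of 36.6 to 85.3 in M+Fc-GLP-1 and 52.6 to 85.4 in C+Fc-GLP-1. In the interaction of diet with the drug 4 of the 8 were lower, beside 2.56% of all genes. Of 7 hepatocyte markers, 4 were lower in MCD than in C (summed signal 3841 to 4541 against 5166 to 8496; Apoa1 -1.13 ± 0.22), beside 15.5% of all genes, and none was called between the treated groups at either time. Of 8 adipocyte markers 4 were kept, and Adipoq, Plin1, Retn and Lep were too dim to be kept. The summed signal of the 4 was 10.9 to 37.8 in MCD and 4.15 to 7.66 in C, and 15.3 to 28.6 in M+Fc-GLP-1 and 2.92 to 4.87 in C+Fc-GLP-1. Cidec, a droplet protein that fatty liver also makes, was the adipocyte marker that rose with the diet (4.21 ± 0.58 in MCD against C), and Cfd fell (-4.34 ± 1.43). Of 6 stellate cell markers 2 were higher in MCD than in C, beside 10.9% of all genes, and 1 was lower between the treated groups before PH, beside 5.02%. Of 4 cholangiocyte markers none was called in these comparisons. Of 2 pancreatic acinar markers tested 1 was lower between the treated groups before PH, beside the same 5.02%. The part of these cell types in the members' differences was not tested.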

How the data were processed

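The authors hybridised 1 liver RNA per array, labelled with Cy3, and deposited the Feature Extraction 10.7.3.1 files of 32 arrays, whose processed signal is an intensity after background subtraction, and a log2 table that the authors had normalized separately for the 16 arrays before and the 16 after PH. The submitters' notes name limma without a version. That table was used as an alternative, within each time only. From the scanner files, control and outlier-flagged spots were left out, spots of a probe were averaged, and log2 intensity was taken minus each array's 75th percentile. Probes flagged well above background throughout 1 or more groups were kept, and the brightest kept probe stood for its gene. Gene names came from the files, updated through RefSeq accessions. limma 3.58.1 in R 4.3.3 fitted 8 group means, with eBayes and a threshold of 0.05 on Benjamini-Hochberg adjusted p, and the step was tested on simulated data. Replicates are separate livers, and the number of arrays limits the precision. Values on every array are given for up to 3 members of a role, those with the largest change past the threshold in the comparisons in which slide and group did not coincide, and of other lists up to 3 genes each way are named by MCD against C or M+Fc-GLP-1 against MCD before PH. Members and lists, for pathway, cell type, feeding and clock genes, were chosen with earlier results of these data known. Some results on genes outside the 36 are not reported here, so those lists are not accounted for in full. A bound compares the brighter group's mean with the dim group's own level or the lowest signal well above background on its arrays, whichever was higher. It applies to this scaling only. The alternatives tried were other normalizations, no filter, the mean over probes, the compared arrays alone, slide as a fixed block on the slides that groups shared, a replicate block and leaving out each array.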

Additional observations from a re-analysis of the deposited data

Results flagged for a closer look

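Single arrays lay far from the other 3 of their group in 23 of the 288 sets of 4 values formed by 36 genes and 8 groups, and chance gives about 1 in 20. In C after PH, array 1 held Elovl3 at -3.61, Pklr at -0.68 and Acss2 at 4.26, each the lowest of its group, and G6pdx at 3.49, the highest, while array 2 held Srebf1 at 2.67. In C before PH, array 1 held Mlxipl at 7.47. In MCD before PH, array 4 held Fasn at 2.16 and array 1 Mogat1 at -5.10, both lowest, and array 3 held Scd1 at 5.70 and array 2 Lpin1 at 4.10, both highest. In C+Fc-GLP-1 before PH, array 2 held Dgat2 at 9.41. In M+Fc-GLP-1 before PH, array 1 held Mlxipl at 6.18 and array 4 Slc25a1 at 4.60, both lowest, and array 3 held Fads2 at 4.92, the highest. After PH, MCD array 1 held Acss2 at 2.79, Acsl3 at -1.49 and Agpat3 at 5.96, MCD array 2 Elovl2 at 3.53 and MCD array 3 Agpat2 at 7.09, all lowest. C+Fc-GLP-1 array 2 held Pgd at 2.39 and array 1 Elovl2 at 4.04 after PH, and M+Fc-GLP-1 array 4 held Agpat2 at 7.74, all lowest, with Lpin2 at 4.41 on M+Fc-GLP-1 array 2 the highest.

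The diet effect differed between saline and Fc-GLP-1 before PH, by the limma test of that difference, for Fasn (-2.62), G6pdx (-2.17), Acly (-1.82), Acss2 (-2.08), Gpam (-1.56), Pnpla3 (-3.44) and Pnpla5 (-3.51), on the log2 scale. Pnpla3 in M+Fc-GLP-1 and Pnpla5 in both MCD-fed groups were not well above background on any array, so these 2 values are not exact. Pnpla5 passed the filter on dim probes only through C+Fc-GLP-1, so its test is no support.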

How the results depend on the processing

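Of the 78 calls of members in all comparisons, 58 were kept with normexp and quantile normalization, 70 with arrays centred on their median, 66 without the filter on dim probes, 74 with the mean over probes and 48 in fits of the compared arrays alone, 46 of 68 were kept on the authors' normalized values, and 43 of 46 with slide as a block. The fit with slide as a block leaves each log2 difference as in the main fit and changes only the estimated spread. Calls kept in it therefore do not test slide. The counts of members called that moved by over 1.5 times were as follows, and the cause was not tested. For M+Fc-GLP-1 against C+Fc-GLP-1 before PH the count was 11 with the compared arrays alone, and centring on the median gave 1 higher and 19 lower. For the diet by drug interaction it was 3 with normexp, 3 on the authors' values and 13 with median centring, which moved the median of all genes from 0.15 to -0.47. For C+Fc-GLP-1 against C before PH it was 10 with normexp, 10 with median centring, 11 on the authors' values (9 higher and 2 lower) and 0 with the compared arrays alone. For M+Fc-GLP-1 against MCD before PH it was 8 on the authors' values and 2 with the compared arrays alone, and the split was 1 higher and 6 lower with median centring and 2 and 5 with normexp. For MCD against C after PH it was 7 with the compared arrays alone. For C+Fc-GLP-1 against C after PH it was 0 with normexp, on the authors' values and with the compared arrays alone, and for M+Fc-GLP-1 against MCD after PH it was 1 with normexp and 1 with the compared arrays alone. For C after against before PH it was 3 with normexp (2 higher and 1 lower) and 2 with the compared arrays alone. For MCD over time it was 2 with median centring, 0 without the filter, 3 with the mean over probes and 5 with the compared arrays alone, for C+Fc-GLP-1 over time 7 with normexp and 0 with the compared arrays alone, and for M+Fc-GLP-1 over time 0 with median centring, 2 with the mean over probes and 0 with the compared arrays alone. Mlxipl in C+Fc-GLP-1 against C before PH turned to -0.85 with normexp and -0.77 on the authors' values, and Dgat2 in M+Fc-GLP-1 against MCD before PH to -0.96 with normexp, each called lower there.

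Leaving out 1 array at a time kept 531 of 680 calls and gave counts of 7 to 10 for MCD against C before PH, 11 to 17 and 13 to 14 for M+Fc-GLP-1 against C+Fc-GLP-1 before and after PH, 3 to 8 for the diet by drug interaction, 1 to 5 for C+Fc-GLP-1 against C and 1 to 5 for M+Fc-GLP-1 against MCD before PH, 8 to 12 for MCD against C, 0 to 1 for C+Fc-GLP-1 against C and 0 to 1 for M+Fc-GLP-1 against MCD after PH, and 3 to 6, 0 to 2, 0 to 2 and 0 to 1 over time in C, in MCD and in their Fc-GLP-1-treated counterparts. The interaction of diet and time had 0 calls throughout.

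Replicate numbers are shared by the groups, and a fit with the replicate number as a block kept 74 of the 78 calls, with 1 call in place of 2 for C+Fc-GLP-1 over time and no other count moved by over 1.5 times. Same-numbered arrays did not deviate together in every pair of any comparison at a correlation over 0.1 (the lowest was between -0.19 and 0.06), so the numbers were not taken to pair the samples.

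Dim probes limit Pnpla5, Pnpla3, Mogat1 and, in MCD-fed groups, Elovl3, for which only bounds or partly measured groups are available.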
